A study of Mus musculus with 4 samples.

Results

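The 10 genes examined here serve antigen presentation by MHC class II and were chosen by name: the chain genes H2-Aa, H2-Ab1 and H2-Eb1, the invariant chain gene Cd74, the peptide editor genes H2-DMa, H2-DMb1, H2-DMb2, H2-Oa and H2-Ob, and the regulator gene Ciita. All 10 were among the 24441 gene symbols in the tables. RNA sequencing had been done on Langerhans cells sorted from epidermal cell suspensions of mice aged 4 weeks. One group was wild type (WT) and the other carried CD11c-Cre with floxed Tfam (Tfam cKO), so that the gene of the mitochondrial DNA-packaging and transcription factor TFAM is targeted in cells that express CD11c. CD11c is not restricted to Langerhans cells, and the labels do not say whether the WT mice carried Cre or floxed alleles, nor which strain was used. Each group had 2 libraries, numbered 1 and 2. Their source mice are not named in the labels, and p-values describe how these 4 libraries vary.

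An MHC class II molecule is an alpha and a beta chain that meet in the endoplasmic reticulum on the invariant chain, CD74, which blocks the groove and directs the complex to endosomes. There proteases trim the invariant chain to a short remnant, CLIP, and the editor H2-M (the product of the DM genes) exchanges CLIP for antigen peptides. H2-O, encoded by H2-Oa and H2-Ob, binds H2-M and inhibits it. It is best known from B cells, thymic epithelium and some dendritic cells. CIITA switches on class II genes through a shared promoter module, the X and Y boxes, to which the RFX and NF-Y factors bind. Langerhans cells carry abundant class II and can present antigen to CD4+ T cells.

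The class II module can be read in the promoters of genes with very different levels in these cells. RefSeq windows on GRCm38.p6, from 250 bases before to 50 after an annotated start, matched 7 of the 10 genes, in 8 windows. H2-Ab1, Cd74 and Ciita had none in the table used. The lines below run 5′ to 3′ on the gene's strand, with 10 bases on each side of the module. Capitals mark a loose X box pattern (CNNNNAAC) and the Y box core (TGATTGG). H2-Oa, H2-Ob and H2-DMb2 are the genes with lower values in Tfam cKO below, and H2-Aa, H2-Eb1 and H2-DMb1 are shown against them.
H2-Oa, chr17:34092290-34092350, plus strand: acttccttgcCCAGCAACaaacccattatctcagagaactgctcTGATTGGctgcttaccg
H2-Ob, chr17:34238805-34238862, plus strand: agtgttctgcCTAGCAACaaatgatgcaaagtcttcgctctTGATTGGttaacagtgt
H2-DMb2, chr17:34145113-34145173, plus strand: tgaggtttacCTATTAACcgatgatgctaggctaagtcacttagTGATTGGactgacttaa
H2-DMb1, chr17:34153084-34153144, plus strand: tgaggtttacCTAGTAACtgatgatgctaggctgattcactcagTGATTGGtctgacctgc
H2-Aa, chr17:34287857-34287917, minus strand: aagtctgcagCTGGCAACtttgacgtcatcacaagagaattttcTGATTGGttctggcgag
H2-Eb1, chr17:34305763-34305822, plus strand: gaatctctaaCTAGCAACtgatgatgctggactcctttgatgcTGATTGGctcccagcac

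The 2 patterns stood 26 bases apart in H2-Oa, H2-DMb2, H2-DMb1 and H2-Aa, 25 apart in H2-Eb1 and 23 apart in H2-Ob. The X pattern was drawn up after these sequences were read. On its own, counted on both strands, it was found in 81.6% of all 32851 promoter windows and the Y core in 7.82%. The X pattern followed by the Y core at a distance of 20 to 30 bases was found on the gene's strand in 0.122% of windows (40 windows, of which 6 are those printed), and on either strand in 0.277%. H2-Oa had 2 such X matches, of which the first is shown. Neither window of H2-DMa held the Y core. The windows of H2-DMb1 and H2-DMb2, neighbouring beta chain genes of H2-M, were 84.3% identical over 255 aligned bases. The likeness of their transcripts was not measured. If it is high, reads could be divided between the 2 genes, and the separate values of H2-DMb1 and H2-DMb2 would be uncertain.

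In the tables' own coordinates 8 of the genes lie on chromosome 17 between 34229323 and 34453619, Ciita lies on chromosome 16 (10480164 to 10527733) and Cd74 on chromosome 18 (60963502 to 60972306). The build of these positions is unresolved, because 1 of the 10 genes, Ciita, overlapped the gene of that name on GRCm38. The gene models of H2-Oa and Cd74 overlapped 1 other listed gene each, BC051537 at 0 to 0.113 FPKM and Mir5107 at 0 FPKM. The others overlapped none.

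Several properties of the libraries bear on the comparison. FPKM, the fragments of a gene scaled to its transcript length and to the mapped fragments of the library, summed to between 338783 and 395707 per library, and total read numbers are unknown. Tfam itself, the targeted gene, had 3.17 and 1.61 FPKM in WT against 1.65 and 1.53 in Tfam cKO, so that the library labelled WT 2 was as low as those labelled Tfam cKO. Exons that Cre leaves in place may add to such a gene-level value. The groups are named here by their labels. Y-linked transcripts were listed at 0 in the libraries numbered 1 and were present in those numbered 2, which marks different source animals within each group, and differences are also given within each number. The Langerhans cell gene Cd207 had 2098 and 1495 FPKM in WT against 1528 and 1374 in Tfam cKO, and Epcam stood at 180 to 199.6. The list of 15 Langerhans cell genes summed to 4845 and 4280 in WT and to 5141 and 4420 in Tfam cKO. Mfge8 alone held 1459 and 1392 of these sums in WT and 2226 and 1769 in Tfam cKO. Of the 13 tested Langerhans cell genes, 2 were above and 2 were below in both Tfam cKO libraries, against 25.4% and 9.75% of all tested genes. Markers of other epidermal cells were present too, with 15 keratinocyte genes summing to 16245 and 11123 FPKM in WT against 16162 and 14826 in Tfam cKO. The 13 T cell genes summed to 664 and 733 in WT and to 543 and 724 in Tfam cKO. Fcer1g alone held 330 and 337 of these sums in WT and 298 and 344 in Tfam cKO. Of the 13, 1 was above and 2 were below in both Tfam cKO libraries, where 25.4% and 9.75% of all tested genes were. In such mixed samples fewer cells of a type and less RNA per cell cannot be told apart.

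Class II transcripts were among the most abundant of all in every library (plot of levels by library). Cd74 was the gene of highest FPKM in all 4 libraries and H2-Ab1 the second. H2-Aa ranked between 3 and 5 and H2-Eb1 between 4 and 7. Of the summed FPKM of a library, the 10 genes together took 6.86% and 7.71% in WT against 7.29% and 6.03% in Tfam cKO, so the groups overlapped.

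**Figure D1:**
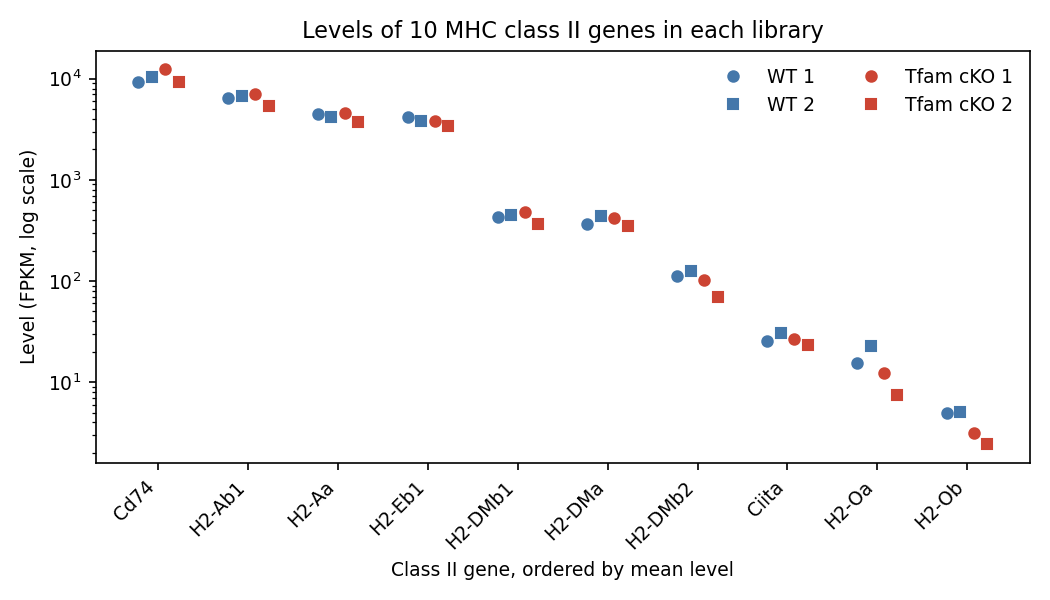
FPKM of each class II gene (log axis, genes in order of mean level), with circles for libraries numbered 1 and squares for those numbered 2, WT in blue and Tfam cKO in red. Levels run from 12340 FPKM for Cd74 to 2.44 FPKM for H2-Ob, and the Tfam cKO points lie below both WT points for H2-DMb2, H2-Oa and H2-Ob.

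By mean FPKM over the 4 libraries, a level per transcript length, the order was Cd74 (10313), H2-Ab1 (6408), H2-Aa (4235), H2-Eb1 (3819), H2-DMb1 (432), H2-DMa (394), H2-DMb2 (103), Ciita (26.4), H2-Oa (14.5) and H2-Ob (3.90). The ranges over libraries of neighbours in this order were separate except for 2 pairs. H2-Aa (3771 to 4579 FPKM) overlapped with H2-Eb1 (3406 to 4201), and H2-DMb1 (366 to 485) with H2-DMa (350.0 to 443). Within each of the 4 libraries, however, H2-Aa exceeded H2-Eb1 and H2-DMb1 exceeded H2-DMa. The widest step was between the chains and the editors, where the mean of H2-Eb1 was 8.83 times that of H2-DMb1. The inhibitor genes H2-Oa and H2-Ob stood lowest, below the regulator gene Ciita.

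Across all 10910 genes with a mean of at least 1 FPKM, which included all 10 class II genes, limma at an adjusted p below 0.05 called 2 genes higher in Tfam cKO (0.0183%) and 0 lower (0%). At an unadjusted p below 0.05 it gave 547 higher (5.01%) and 130 lower (1.19%), with 0 and 2 of the 10 class II genes, H2-Oa and H2-Ob, among them. None of the 10 class II genes passed the adjusted threshold in this fit. Both Tfam cKO libraries were below both WT libraries for 3 of the 10, H2-Oa, H2-Ob and H2-DMb2, and above for 0. The same held for 9.75% of all tested genes in the lower and 25.4% in the higher direction. These shares depended on scaling, at 17.3% lower and 16.3% higher after quantile normalization and 19.8% lower and 14.3% higher after rescaling to equal totals. Quantile normalization put 4 members below, with Ciita added, and rescaling put 6, with H2-Aa, H2-Eb1 and Ciita added. With a library left out, the members below numbered 5 without WT 1, 10 without Tfam cKO 1, 4 without WT 2 and 3 without Tfam cKO 2, against 20.7%, 19.0%, 32.0% and 23.0% of all genes. H2-Oa, H2-Ob and H2-DMb2 were among them in each of these fits.

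The chains of the class II molecule showed overlapping levels in the 2 groups. H2-Aa, which encodes the alpha chain of I-A, was listed at 4435 and 4156 FPKM in WT against 4579 and 3771 in Tfam cKO. H2-Ab1, its beta chain, was listed at 6487 and 6705 in WT and at 7053 and 5387 in Tfam cKO. Tfam cKO 1 was the highest and Tfam cKO 2 the lowest library for both genes, so the WT values lay between those of Tfam cKO. H2-Eb1, the beta chain of I-E, was listed at 4201 and 3827 in WT and at 3840 and 3406 in Tfam cKO. Log2 fold changes, Tfam cKO over WT, of FPKM + 1 were −0.05 for H2-Aa (SE 0.26), −0.10 for H2-Ab1 (SE 0.27) and −0.15 for H2-Eb1 (SE 0.25), with limma adjusted p between 0.963 and 0.996. The widest of the unadjusted 95% intervals, that of H2-Ab1, ran from −0.73 to 0.53, so differences within those bounds are not excluded. These bounds are not a limit of detection. With 2 libraries per group the difference of H2-Oa, at −0.88, did not pass the adjusted threshold either.

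The gene for the partner of the H2-Eb1 chain was listed at or near 0. H2-Ea-ps, listed as the pseudogene of the I-E alpha chain, stood at 0.139 and 0 FPKM in WT against 0.158 and 0.0915 in Tfam cKO. Each value above 0 had a single-library interval as wide as about 1 fragment would give. In mouse strains of the H2-b haplotype this alpha chain gene is inactive and I-E does not reach the cell surface. H2-Eb1 transcripts were at 3819 FPKM on average.

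Cd74 was the 1 gene of the 10 with a positive fold change. It was listed at 9289 and 10360 FPKM in WT against 12340 and 9264 in Tfam cKO, with Tfam cKO 2 the lowest library and Tfam cKO 1 the highest. The log2 fold change was 0.12 (SE 0.29, 95% interval −0.54 to 0.79, limma adjusted p = 0.98). It was 0 after quantile normalization, where Cd74 holds the top rank in every library, and −0.08 without Tfam cKO 1.

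Ciita, the regulator of all these genes, overlapped between the groups as well. It was listed at 25.7 and 30.3 FPKM in WT against 26.6 and 23.2 in Tfam cKO. The log2 fold change was −0.16 with an SE of 0.18 (limma adjusted p = 0.95). The tables give 1 value per gene, so the alternative promoters of Ciita, one of which serves dendritic cells, cannot be told apart.

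Among the editors, H2-DMa and H2-DMb1 overlapped between the groups and H2-DMb2 did not. H2-DMa, the alpha chain of H2-M, was listed at 366 and 443 FPKM in WT against 416 and 350.0 in Tfam cKO. H2-DMb1 was listed at 433 and 444 in WT and at 485 and 366 in Tfam cKO. Their log2 fold changes were −0.08 and −0.06 (limma adjusted p = 0.98 and 0.99). H2-DMb2, the second beta chain, was listed at 113 and 127 FPKM in WT against 103 and 68.8 in Tfam cKO. Both Tfam cKO libraries were lower, Tfam cKO 1 by a small step and Tfam cKO 2 by a large one, with a log2 difference of −0.13 between the libraries numbered 1 and of −0.87 between those numbered 2. It did not pass, at a log2 fold change of −0.50 with an SE of 0.23 (limma adjusted p = 0.83).

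The largest differences belonged to the inhibitor H2-O (plot of the genes with lower values). H2-Oa was listed at 15.4 and 22.6 FPKM in WT against 12.5 and 7.51 in Tfam cKO. WT 2 was the highest and Tfam cKO 2 the lowest library, and the mean of Tfam cKO was 52.5% of that of WT. The log2 fold change of H2-Oa was −0.88 (SE 0.26, 95% interval −1.47 to −0.29), with an unadjusted p of 0.00884, rank 163 of 10910 genes, and a limma adjusted p = 0.58. Between the libraries numbered 1 it was −0.29, and between those numbered 2 it was −1.47. In a fit that also held this number, H2-Oa passed (limma adjusted p = 0.00658). What the number marks is not given in the labels. Without Tfam cKO 1 the fold change was −1.21 and passed (limma adjusted p = 0.00598, from there up to 0.896 over its other alternatives), with the lone Tfam cKO library assumed to vary like the WT libraries.

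H2-Ob was listed at 4.93 and 5.08 FPKM in WT against 3.15 and 2.44 in Tfam cKO. Here the libraries of each group lay close together, and the mean of Tfam cKO was 55.9% of that of WT. The log2 fold change of H2-Ob was −0.67 (SE 0.18, 95% interval −1.08 to −0.26), with an unadjusted p of 0.00521, rank 106, and a limma adjusted p = 0.54. Libraries numbered 1 differed by −0.52 and those numbered 2 by −0.82. Because 1 is added before the logarithm, the value understates the change of a gene this low, and it was −0.83 with a pseudocount of 0.1.

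Another class II gene of low level, H2-Eb2, is an I-E beta-like gene that is not one of the 10. H2-Eb2 was listed at 1.26 and 1.63 FPKM in WT against 0.635 and 0.643 in Tfam cKO, lower in both Tfam cKO libraries, with a log2 fold change of −0.57 and an SE of 0.22 (limma adjusted p = 0.73).

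**Figure D2:**
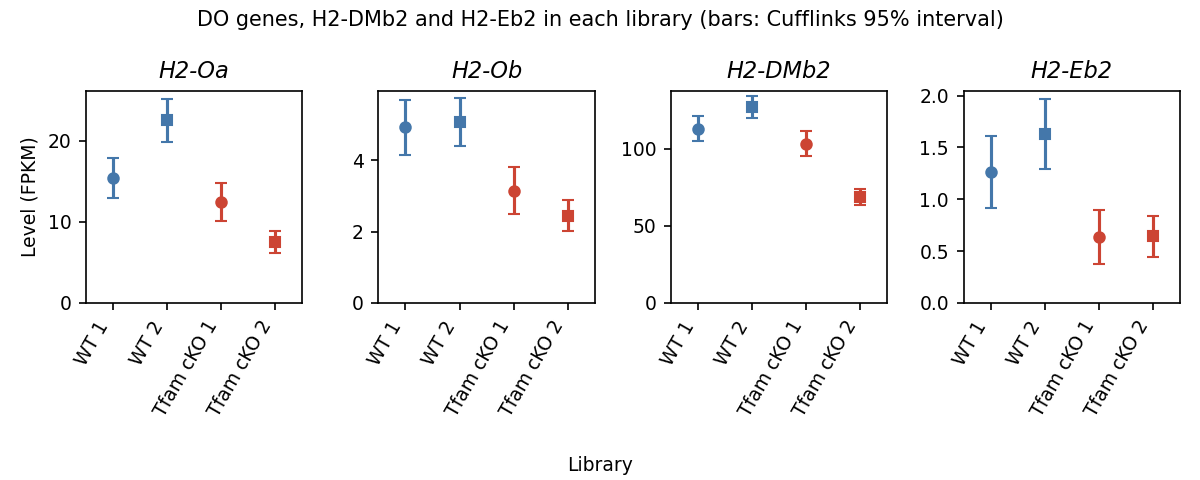
FPKM (linear axes from 0) of H2-Oa, H2-Ob, H2-DMb2 and H2-Eb2 in each library, with the 95% interval that Cufflinks gives for each estimate. Both Tfam cKO libraries are lower for each gene, and the intervals of the 2 groups are separate for H2-Ob and H2-Eb2 and overlap for WT 1 and Tfam cKO 1 of H2-Oa and H2-DMb2.

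The Cufflinks intervals cover the error of a single library and not that between mice. For H2-Ob they ran from 4.16 to 5.71 and from 4.40 to 5.76 FPKM in WT and from 2.49 to 3.81 and from 2.01 to 2.88 in Tfam cKO, without overlap between groups. For H2-Oa that of WT 1 (12.9 to 17.9) overlapped that of Tfam cKO 1 (10.1 to 14.8). The widths correspond to an effective 91 to 223 fragments per library for H2-Ob, 111 to 290 for H2-Oa, 648 to 1271 for H2-DMb2 and 24 to 95 for H2-Eb2. For the chain genes this effective number was 44334 to 116186. For Cd74, the gene of highest FPKM, it was 3956 to 4175, so it is not a count of reads.

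**Figure D3:**
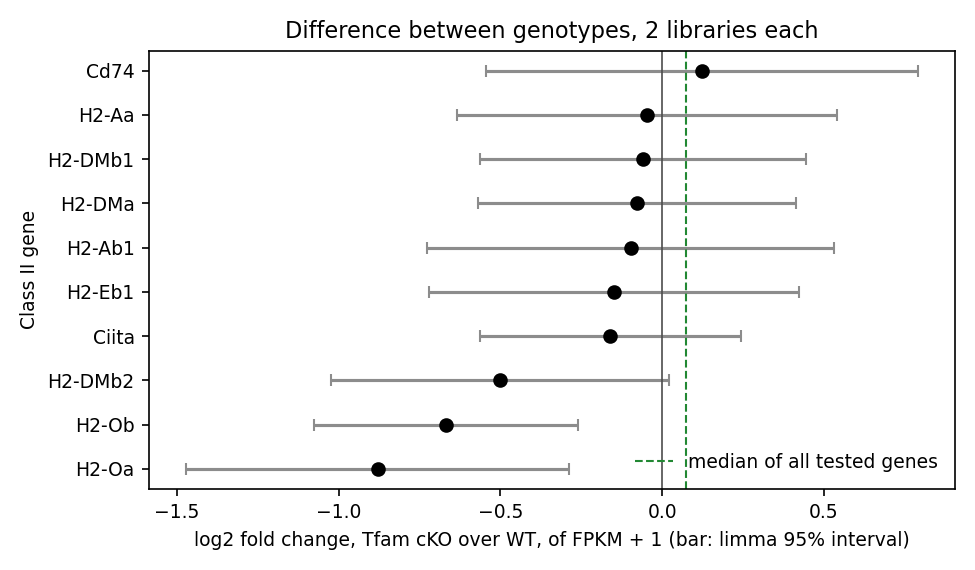
Log2 fold change of each class II gene, Tfam cKO over WT, of FPKM + 1, with the limma 95% interval, and a dashed line at the median of all tested genes, 0.07. H2-Oa and H2-Ob have unadjusted intervals below 0, that of H2-DMb2 ends at 0.02 and the other 7 span 0.

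Over the 10 genes the median log2 fold change was −0.12, against 0.07 over all tested genes. It was negative for 9 of the 10, while 65.2% of all tested genes were positive. Rescaling to equal totals moved the median of all genes by −0.11, to −0.04, and the median of the 10 genes was then −0.25.

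Ratios between genes of the same library do not move with its scaling, and 7 were compared (plot of ratios within libraries). With 2 libraries against 2 the exact two-sided permutation test cannot give a p below 0.333. The DO genes, H2-Oa and H2-Ob summed, stood at 2.23% and 2.73% of the summed DM genes in WT and at 1.55% and 1.27% in Tfam cKO. Both Tfam cKO libraries were lower, with a log2 difference of −0.81 (exact p = 0.333, adjusted over the 7 ratios 0.778), −0.52 for number 1 and −1.10 for number 2. Set against the 3 chains instead, a comparison added after the values were seen, the DO genes differed by −0.83. H2-DMb2 stood at 26.1% and 28.5% of H2-DMb1 in WT and at 21.3% and 18.8% in Tfam cKO, again lower in both (log2 difference −0.45, exact p = 0.333, adjusted 0.778).

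Cd74 relative to the summed chains was higher in both Tfam cKO libraries, at 79.8% and 73.7%, than in WT, at 61.4% and 70.5% (log2 difference 0.22, exact p = 0.333, adjusted 0.778). WT 2 and Tfam cKO 2 were close to each other, with a difference of 0.06 within that number and 0.38 within number 1. The other 4 ratios overlapped between the groups. The DM genes were at 6.03% and 6.90% of the chains in WT and at 6.49% and 6.24% in Tfam cKO. Ciita was at 0.170% and 0.206% of the chains in WT and at 0.172% and 0.185% in Tfam cKO. H2-Aa was at 68.4% and 62.0% of H2-Ab1 in WT and at 64.9% and 70.0% in Tfam cKO. H2-Eb1 was at 76.9% and 70.5% of the mean of both I-A chains in WT and at 66.0% and 74.4% in Tfam cKO.

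**Figure D4:**
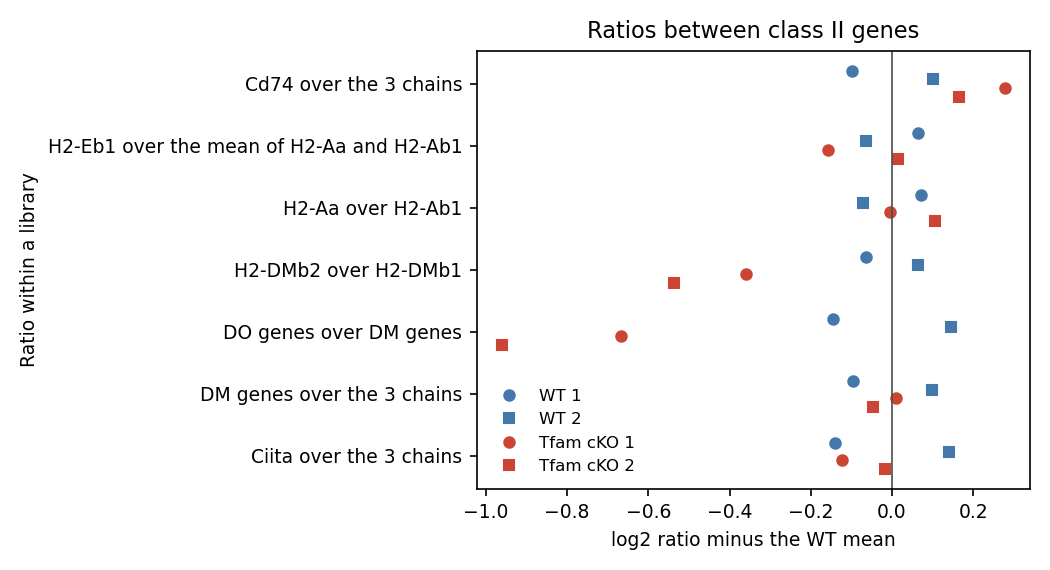
Log2 ratio of class II genes within each library, set against the WT mean of that ratio, with WT in blue and Tfam cKO in red. The DO to DM and H2-DMb2 to H2-DMb1 ratios lie lower and the Cd74 to chain ratio lies higher in both Tfam cKO libraries, while the other 4 ratios overlap.

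Other cell types that transcribe the lower genes were looked for by their markers. Of 12 B cell genes, Ms4a1, Ebf1 and Cr2 were among those at 0 FPKM in all 4 libraries and none exceeded 0.866, and the list summed to 1.53 and 1.19 FPKM in WT against 1.35 and 1.21 in Tfam cKO. Of 11 genes of conventional dermal dendritic cells, Xcr1 was at 0.0984 to 0.156 FPKM and Clec9a at 0 to 0.0543. Mgl2, a lectin gene of the same list, had 5.14 and 5.02 FPKM in WT against 13.02 and 10.6 in Tfam cKO, and Flt3, a growth factor receptor gene, was above in both Tfam cKO libraries too (limma adjusted p = 0.149 and 0.685). That list summed to 31.0 and 31.7 in WT and to 41.9 and 38.4 in Tfam cKO. Of its 5 tested genes 2 were above and 0 below in both Tfam cKO libraries, against 25.4% and 9.75% of all tested genes. The 14 macrophage and monocyte genes summed to 77.7 and 129 in WT and to 234 and 157 in Tfam cKO, with C1qa, C1qb and C1qc, which encode the chains of complement C1q, above in both Tfam cKO libraries and Cd163, Folr2, Cd209f and Fcgr1 at 0 in all 4. Of the 4 tested genes of this list 3 were above and 0 below, against the same shares of all tested genes. The remaining genes of both lists averaged below 1 FPKM and were not tested. C1qa, the highest of the chains, had 22.1 and 29.3 FPKM in WT against 88.5 and 55.2 in Tfam cKO. The 3 C1q genes did not pass (limma adjusted p = 0.115 to 0.231), and these, Mgl2 and Flt3 were chosen after their values were seen. The last 2 lists were thus higher in Tfam cKO, where the DO genes were lower, and their part in the result was not tested.

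The factors that bind class II promoters overlapped between the groups in most cases. Of 10 such genes 0 passed the test, and 1 was above and 2 were below in both Tfam cKO libraries, against 25.4% above and 9.75% below among all tested genes. The median log2 fold change was 0.02. Spi1, which encodes PU.1, was the most abundant, at 131 and 146 FPKM in WT against 156 and 130 in Tfam cKO. Both genes below were chosen after their values were seen. Rfxank, a subunit of RFX, was at 3.54 and 3.79 FPKM in WT against 2.57 and 2.91 in Tfam cKO (limma adjusted p = 0.86), and Rfxap, another subunit, at 9.43 and 8.67 in WT and at 8.24 and 7.29 in Tfam cKO (limma adjusted p = 0.92). The third subunit, Rfx5, was at 8.38 to 9.21 in all 4 libraries. Irf8, a factor of dendritic cell development, was at 10.4 and 16.0 in WT and at 20.02 and 16.7 in Tfam cKO. Irf4 was at 30.5 and 21.9 in WT and at 29.8 and 17.3 in Tfam cKO, and the NF-Y subunits Nfya and Nfyc at 15.6 to 20.8 and 10.7 to 14.1 over all libraries.

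The list of invariant chain and antigen processing genes, not all of them proteases, had the highest median of the lists on this pathway, 0.28. Of 11 tested, 0 passed, 6 were above and 1 was below in both Tfam cKO libraries, against 25.4% and 9.75% of all tested genes. The protease that removes the invariant chain in most antigen-presenting cells, cathepsin S (Ctss), overlapped, at 306 and 284 FPKM in WT against 304 and 259 in Tfam cKO. Its inhibitor family member Cst3, cystatin C, was the 1 below, at 2964 and 2793 in WT and at 2726 and 2443 in Tfam cKO. Among the 6 above were Ctsb, at 88.8 and 81.6 in WT and at 121 and 109 in Tfam cKO, Ctsz, at 124 and 107 in WT and at 172 and 136 in Tfam cKO, and the thiol reductase gene Ifi30, at 97.8 and 132 in WT and at 144 and 148 in Tfam cKO. Ctsh overlapped, at 96.9 and 89.0 in WT and at 119 and 93.5 in Tfam cKO. Limma adjusted p was at least 0.598 for every gene of this list.

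Turnover of class II at the surface is driven by the ubiquitin ligase MARCH1 and opposed by CD83. March1 was at 8.33 and 7.24 FPKM in WT against 7.86 and 7.96 in Tfam cKO, and Cd83 at 389 and 319 in WT and at 448 and 284 in Tfam cKO. March8 was at 3.81 and 4.71 in WT and at 5.63 and 4.33 in Tfam cKO. The tetraspanins Cd9 (643 to 718 FPKM) and Cd82 (181 to 214) overlapped too. Of these 6 tested genes 0 passed and 1 was above in both Tfam cKO libraries, no larger a share than the 25.4% of all tested genes. It was Cd63, a tetraspanin of the compartments in which class II is loaded, at 102 and 109 in WT and at 226 and 164 in Tfam cKO (limma adjusted p = 0.47).

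Interferon-gamma is the main inducer of Ciita outside professional antigen-presenting cells. Of 12 tested genes of its pathway 0 passed, and 4 were above and 1 was below in both Tfam cKO libraries, near the 25.4% and 9.75% of all tested genes. The median log2 fold change was 0.08, close to that of all genes. Irf1, a factor that interferon-gamma induces and that acts at the Ciita promoter, was at 25.6 and 36.2 FPKM in WT against 30.9 and 35.3 in Tfam cKO. The receptor chain Ifngr1 was at 34.5 to 41.0, the kinase genes Jak1 and Jak2 at 43.7 to 55.6 and 24.8 to 28.6, the feedback inhibitor Socs1 at 16.0 to 25.0, and Ifngr2 at 17.2 and 21.2 in WT and at 24.3 and 22.7 in Tfam cKO.

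Dendritic cells change their class II synthesis when they mature, and 9 genes of maturation were tested. None passed, and 1 was above and 2 were below in both Tfam cKO libraries, where 25.4% and 9.75% of all tested genes were. The median was 0.01. The chemokine gene Ccl22 was at 16.2 and 46.3 FPKM in WT against 7.45 and 9.08 in Tfam cKO (limma adjusted p = 0.46), and the migration receptor gene Ccr7, chosen after its values were seen, at 6.57 and 9.67 in WT and at 3.23 and 4.16 in Tfam cKO (limma adjusted p = 0.42). As for H2-Oa, WT 2 was the highest library for both. The costimulator gene Cd86 overlapped, at 117 and 89.3 in WT and at 109 and 81.7 in Tfam cKO, as did Relb, at 25.7 and 31.6 in WT and at 36.7 and 31.0 in Tfam cKO. Cd40 was the 1 above, at 11.5 and 12.8 in WT and at 16.1 and 16.6 in Tfam cKO, and Marcks was at 9.86 to 12.0.

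**Figure D5:**
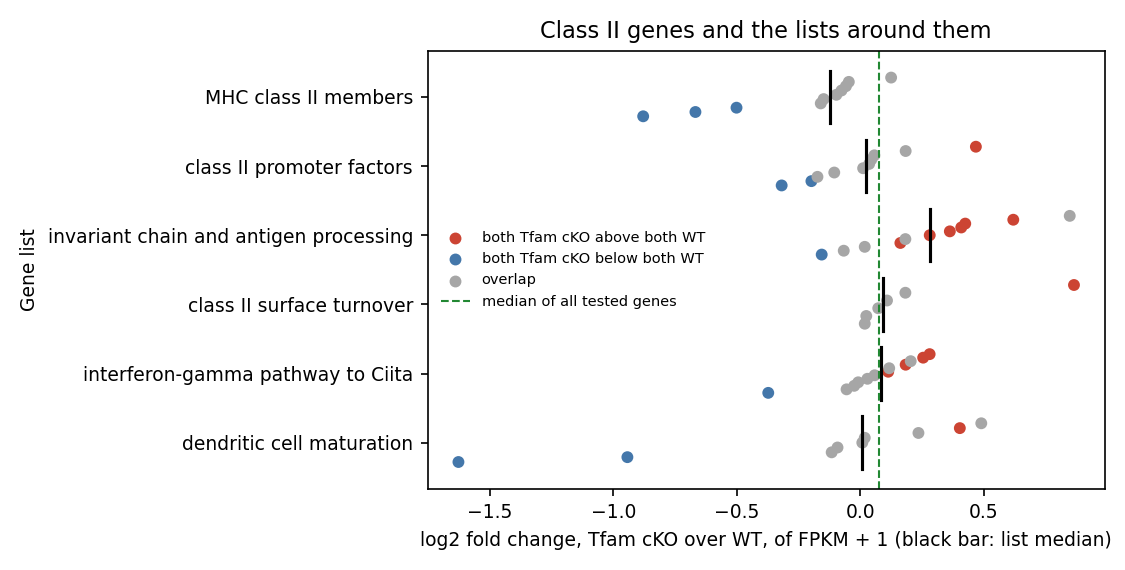
Log2 fold change, Tfam cKO over WT, of FPKM + 1 for each tested gene of the class II set and of 5 lists around it, with a black bar at each list's median and colours for genes whose groups do not overlap. The medians run from −0.12 for the 10 class II genes to 0.28 for the antigen processing list, with 0.07 for all genes as a dashed line.

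Genes whose profile over the 4 libraries was most like that of the 3 chains were sought among 1036 other genes with a mean of at least 50 FPKM, by the Euclidean distance of centred log2 values. The closest were Gnai2 (distance 0.036), a G protein subunit gene, Gadd45b (0.045), Ubb (0.050), a ubiquitin gene, St14 (0.070), a membrane serine protease gene, and Cd24a (0.071), a surface glycoprotein gene. Gnai2, for example, was at 405 and 396 FPKM in WT against 427 and 343 in Tfam cKO, again with Tfam cKO 2 lowest. With 4 libraries this likeness is a description.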

How the data were processed

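Langerhans cells had been sorted from epidermal suspensions, and Trizol RNA was prepared with a NEBNext Ultra kit (per the labels' protocols). Cufflinks, run by the authors, gave the deposited gene-level FPKM and a 95% interval for each, in 1 table of 24994 rows per library (per the file headers). CASAVA and mm10 are named too, per the submitters' processing notes. The aligner, the annotation and the strandedness were not given in the sources used here. For 301 symbols listed at several loci the FPKM were added up. The 10910 symbols averaging 1 FPKM or more were compared as log2(FPKM + 1) by limma 3.58.1 (R 4.3.3). Genotype was the single term, variances had a mean trend, and p-values were adjusted by Benjamini-Hochberg over all 10910 at 0.05. The interval spans 2 standard errors on each side, which gives an effective number of fragments. The text names all 10 members, up to 6 genes of highest level in each related list, genes below or above that a sentence singles out after their values were seen, and the 5 nearest profiles. Members and lists were chosen with earlier results of these data known. Alternatives were other pseudocounts, filters, scalings and variance models, the highest locus, the replicate number as a term, and leaving out each library. The values of 2 genes of the lists are not reported here. Plots were made in matplotlib 3.10.9 (Python 3.11.15).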

Additional observations from a re-analysis of the deposited data

How the results depend on the processing

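The fold changes of H2-Oa, H2-Ob, H2-DMb2, H2-Eb1 and Ciita were negative under every alternative run, and so was the median of the members (−0.26 to −0.0074). H2-Ob could not be tested with the filter at 5 FPKM, since its mean was lower. Over all alternatives H2-Oa ranged from −1.21 to −0.55, H2-Ob from −0.89 to −0.36 and H2-DMb2 from −0.79 to −0.21, and the DO to DM ratio from −0.96 to −0.67. With a library left out, signs turned for H2-Aa (−0.19 to 0.093), H2-Ab1 (−0.29 to 0.097), H2-DMa (−0.21 to 0.060), H2-DMb1 (−0.26 to 0.15) and Cd74 (−0.083 to 0.33). They also turned for the log2 ratios of H2-Eb1 to the I-A chains (−0.16 to 0.014), H2-Aa to H2-Ab1 (−0.020 to 0.12), the DM genes to the chains (−0.12 to 0.078) and Ciita to the chains (−0.21 to 0.071). The members below in Tfam cKO numbered 6 after rescaling to equal totals and 3 to 10 with a library left out, and those above 0 to 4, the 4 being without Tfam cKO 2, where 41.9% of all tested genes were above. Genes past the threshold over all genes were 1 higher with a pseudocount of 5, 0 without a filter and 1 with the filter at 5 FPKM. There was 1 lower without a mean trend and there were 2 with robust moderation. With a library left out there were 12 to 63 higher and 3 to 40 lower. The cause was not tested.

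With the replicate number as a block, 145 genes were higher and 39 lower. H2-Oa passed (log2 fold change −0.88, limma adjusted p = 0.00658, over all its alternatives between 0.00598 and 0.896) and H2-Ob did not (0.0617). The labels do not say that the numbers mark a shared litter or day, but Y-linked transcripts were at 0 in both libraries numbered 1 and present in both numbered 2. Deviations of same-numbered libraries from their group means correlated with r = 0.255 across genes, and 2 groups of 2 give this 1 value only, so the planned fit without the block was kept. The block changed no other call among the 10 genes.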
